A study of Homo sapiens with 6 samples.

Results

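NF-κB is a family of transcription factors, and the genes examined here encode its 5 subunits and 5 of the genes by which its activity is held in check or fed back. The members were the rows of the deposited count table named NFKB1, NFKB2, REL, RELA and RELB for the subunits, and NFKBIA, NFKBIE, NFKBIZ, TNFAIP3 and BIRC3 for the feedback genes. All 10 were found among the 19899 genes of the table and were compared between cells with and without BRG1 reexpression. BRG1, the product of SMARCA4, powers SWI/SNF chromatin remodeling by hydrolysing ATP and is lost in SCCOHT, a small cell cancer of the ovary. COV434, an established cell line that the study counts among its SCCOHT lines, received a control plasmid (pCDNA3-neo; Control, n = 3) or a BRG1 plasmid (PBJ5-BRG1; BRG1, n = 3), and both groups also received the puromycin resistance plasmid pBABE-puro. Puromycin at 2 to 3 µg/ml was added 24 hours later in both groups, and RNA was sequenced after 3 days of selection. The cells were transfected populations and not clones, and the labels do not say which sample had which puromycin concentration.

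In resting cells NF-κB dimers are held in the cytoplasm by IκB proteins. Signals from cytokine and innate immune receptors activate the IκB kinase complex, IκB is degraded, and the dimers enter the nucleus and bind κB sites in DNA. Among the genes they switch on are those for their own inhibitors and several of their own subunits, which gives the system its known feedback. RELA, RELB and REL carry transactivation domains, whereas NFKB1 and NFKB2 encode precursors that are processed to DNA-binding partners without one.

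The sequence around the transcription starts of the members was taken first, since κB sites there are what the feedback is known to act through. RefSeq windows (GRCh38.p14) from 250 bases before to 50 bases after a start were on hand for 8 members in 13 windows. RELB and NFKBIE were not matched. The windows of the 4 members that were higher in the fit with the replicate block (below) are shown 5′ to 3′ in the direction of the gene, and for NFKB1 and NFKB2 the window shown is the first along the gene that holds a match. Capitals mark matches to the NF-κB consensus on either strand, and overlapping matches run together.
NFKBIA (chr14:35404700-35404999, minus strand): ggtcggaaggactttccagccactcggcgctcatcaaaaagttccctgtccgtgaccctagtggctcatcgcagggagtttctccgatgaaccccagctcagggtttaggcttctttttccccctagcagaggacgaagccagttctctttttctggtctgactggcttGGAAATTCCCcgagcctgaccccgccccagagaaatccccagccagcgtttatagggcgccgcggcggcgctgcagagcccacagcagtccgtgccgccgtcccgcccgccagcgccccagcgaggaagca
TNFAIP3 (chr6:137867009-137867308, plus strand): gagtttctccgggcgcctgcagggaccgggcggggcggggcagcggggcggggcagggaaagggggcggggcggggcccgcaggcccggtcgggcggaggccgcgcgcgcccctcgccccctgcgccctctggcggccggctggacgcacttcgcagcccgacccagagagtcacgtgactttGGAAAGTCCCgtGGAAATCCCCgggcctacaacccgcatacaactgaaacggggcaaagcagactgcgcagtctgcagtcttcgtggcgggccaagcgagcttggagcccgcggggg
NFKB1 (chr4:102501109-102501408, plus strand): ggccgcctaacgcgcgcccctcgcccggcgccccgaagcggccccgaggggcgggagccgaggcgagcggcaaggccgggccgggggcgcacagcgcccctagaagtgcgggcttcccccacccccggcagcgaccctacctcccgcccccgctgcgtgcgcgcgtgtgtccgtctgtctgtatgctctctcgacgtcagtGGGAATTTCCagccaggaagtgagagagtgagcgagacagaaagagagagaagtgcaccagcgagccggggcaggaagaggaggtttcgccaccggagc
NFKB2 (chr10:102394328-102394627, plus strand): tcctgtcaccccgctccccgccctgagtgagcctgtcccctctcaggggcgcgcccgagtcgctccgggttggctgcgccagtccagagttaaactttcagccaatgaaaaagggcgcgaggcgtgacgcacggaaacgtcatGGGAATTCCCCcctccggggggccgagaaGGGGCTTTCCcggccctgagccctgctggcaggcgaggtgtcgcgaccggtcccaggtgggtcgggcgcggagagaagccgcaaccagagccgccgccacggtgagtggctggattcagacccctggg

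The NF-κB consensus was present in 9 of these 13 windows and in 7 of the 8 members with a window. Over all 35116 windows of the RefSeq table it was present in 5.91%. In NFKBIA, which encodes IκBα, the single match GGAAATTCCC began 81 bases before the start. TNFAIP3 had matches GGAAAGTCCC and GGAAATCCCC, which began 67 and 55 bases before the start. The first window of NFKB1 held GGGAATTTCC 49 bases before the start, and its second window held none. NFKB2 had 3 matches in its second window, of which GGGAATTCCC and GGAATTCCCC overlap, and 2 in a later one. BIRC3, NFKBIZ and REL also had matches, and RELA had none in either of its windows. The AP-1 motif TGANTCA, a palindrome and so the same on both strands, was in 0 of the 13 windows and in 7.71% of all windows. The interferon-stimulated response element was in 1 of the 13 windows, of RELA, and in 3.57% of all windows. For these 2 motifs, 13 windows are too few to be set apart from the share of all windows. A match describes letters in the window and was not tested for binding.

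**Figure D1:**
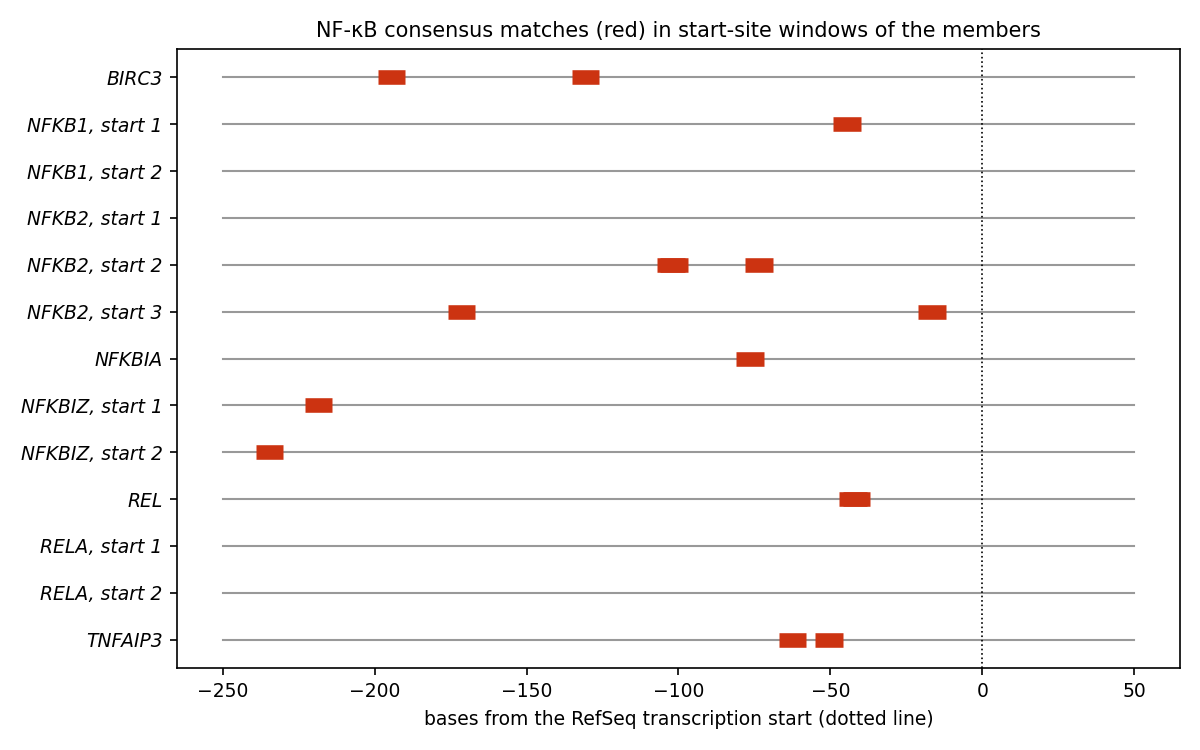
Position of NF-κB consensus matches (red blocks) in the 13 RefSeq start-site windows of 8 members, in bases from the transcription start (dotted line), each grey line being 1 window and starts being numbered along the gene. Matches lie upstream of the start in 9 windows and begin between 239 and 21 bases before it, and both RELA windows are empty.

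The libraries held 29699741 (BRG1 replicate 3) to 63613710 (BRG1 replicate 1) estimated counts. SMARCA4 checked the labels: Control samples had 1439, 1676 and 1538 normalised counts and BRG1 samples 108655, 79075 and 78589, with transcripts from the plasmid included. The fold within replicate numbers 1, 2 and 3 was 75.5, 47.2 and 51.1, and was thus largest in replicate 1. Whether the level of SMARCA4 bears on the differences between replicates was not tested. Replicate 3 stood apart for the NF-κB genes. It had the lowest level in both groups in 9 of the 10 members, BIRC3 being the exception, against 24.3% of all genes tested. Same-numbered Control and BRG1 samples deviated together over all genes, and the replicate number was therefore also fitted as a block. The labels do not say whether a shared number marks a shared transfection, so the pairing rests on these same samples. What sets replicate 3 apart was not tested.

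Among the subunits, NFKB1 was higher with BRG1 within each replicate number. Control samples 1 to 3 had 2480, 3220 and 2145 normalised counts, and BRG1 samples had 3520, 5596 and 2418. Both groups ran from low values in replicate 3 to high values in replicate 2, and they overlapped. The log2 fold change of 0.56 ± 0.32 (SE) in the fit without the block was not called (DESeq2 adjusted p 0.324). With the block it was 0.49 ± 0.14, and NFKB1 rose (DESeq2 adjusted p 0.00484, edgeR adjusted p 0.0306). In GRCh38, with the gene bounds of GENCODE release 44 here and below, NFKB1 spans chr4:102501330-102617302 (plus strand).

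NFKB2, whose precursor also acts as an inhibitor of RELB dimers, had the same order of samples. Control samples had 5467, 6110 and 2561 normalised counts and BRG1 samples 7231, 9304 and 2700. Replicate 3 was again the lowest in both groups, and the fold within its pair was 1.05 against 1.32 and 1.52 in replicates 1 and 2. The log2 fold change was 0.44 ± 0.44 without the block (DESeq2 adjusted p 0.691) and 0.36 ± 0.13 with it (DESeq2 adjusted p 0.0273). The edgeR test with the block did not call it (adjusted p 0.0605). The gene spans chr10:102394110-102402524 (plus strand).

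RELA, RELB and REL were not called in any of the fits. RELA (chr11:65653599-65663090, minus strand) had 5724, 5253 and 3773 normalised counts in Control and 5855, 6007 and 3966 in BRG1 samples. Its groups overlapped and its log2 fold change with the block was 0.10, with a 95% interval of -0.09 to 0.29. RELB (chr19:45001461-45038192, plus strand) had 2190, 3643 and 1239 in Control and 2496, 4716 and 1458 in BRG1 samples. Each BRG1 sample of RELB was above the Control sample of its number, by folds of 1.14, 1.29 and 1.18, and the log2 fold change with the block was 0.27 (95% interval 0.05 to 0.48 before adjustment, DESeq2 adjusted p 0.0701). REL (chr2:60881491-60931612, plus strand) had 1417, 1155 and 359 normalised counts in Control and 1005, 1557 and 352 in BRG1 samples. It had no common direction, since it was lower with BRG1 in replicates 1 and 3 and higher in replicate 2, and its log2 fold change with the block was -0.03 (95% interval -0.43 to 0.37). Exons of another gene cover 51.3% of the bases of the REL transcript, and because the libraries do not keep strand its values may include reads from that gene.

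Of the feedback genes, TNFAIP3 encodes a ubiquitin-editing enzyme that shuts off signaling to the IκB kinase complex. Control samples had 853, 765 and 280 normalised counts and BRG1 samples 5860, 2574 and 476. BRG1 samples 1 and 2 were above every Control sample, whereas BRG1 sample 3 was below Control samples 1 and 2. The fold within replicate numbers was 6.87, 3.37 and 1.70. Without the block the log2 fold change of 2.23 ± 0.98 did not pass (DESeq2 adjusted p 0.137, edgeR adjusted p 0.154). With the block it was 1.77 ± 0.55, and TNFAIP3 rose (DESeq2 adjusted p 0.00878, edgeR adjusted p 0.00769). The gene spans chr6:137867214-137883314 (plus strand).

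NFKBIA was higher with BRG1 within each replicate number. Its Control samples had 5604, 5141 and 807 normalised counts and its BRG1 samples 10087, 8362 and 1788. Replicate 3 was far below the others in both groups, by a factor of 6.94 within Control and 5.64 within BRG1 samples, which was more than the fold of 1.80, 1.63 and 2.22 between groups within each number. Without the block the log2 fold change of 0.81 ± 0.98 was not called (DESeq2 adjusted p 0.765). With the block it was 0.89 ± 0.12, and NFKBIA rose (DESeq2 adjusted p 5.3e-12, edgeR adjusted p 0.00140). It spans chr14:35401079-35404749 (minus strand).

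NFKBIZ, which encodes a nuclear IκB protein that acts as a coactivator at some inflammatory genes, was higher in replicates 1 and 2 only. Control samples had 523, 395 and 332 normalised counts and BRG1 samples 1291, 817 and 269. BRG1 sample 3 was the lowest of all 6 samples. NFKBIZ was not called without the block (log2 fold change 0.93, DESeq2 adjusted p 0.239) or with it (0.70, DESeq2 adjusted p 0.0802). Without BRG1 replicate 3 the log2 fold change was 1.34 and NFKBIZ was called (DESeq2 adjusted p 8.5e-05). It spans chr3:101827991-101861022 (plus strand).

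NFKBIE, which encodes the inhibitor IκBε, had 1843, 1446 and 619 normalised counts in Control and 1883, 2381 and 585 in BRG1 samples. The groups overlapped, and the fold within replicate numbers was 1.02, 1.65 and 0.946. The log2 fold change with the block was 0.23 (95% interval -0.13 to 0.59). BIRC3 encodes a ubiquitin ligase that acts at tumor necrosis factor receptors and restrains the noncanonical branch of NF-κB. It was barely detected, with 5, 0 and 6 estimated counts in Control samples 1 to 3 and 18, 13 and 13 in BRG1 samples. In normalised counts these were 6.09, 0 and 4.54 against 13.1, 10.8 and 19.4, and BIRC3 was the 1 member whose groups did not overlap, against 16.7% of all genes tested with BRG1 above and 9.92% with BRG1 below. At this depth BIRC3 was not called by DESeq2 or edgeR, with or without the block (DESeq2 log2 fold change 2.00, adjusted p 0.242, and adjusted p 0.204 with the block). NFKBIE spans chr6:44258166-44265788 (minus strand) and BIRC3 chr11:102317484-102339403 (plus strand).

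**Figure D2:**
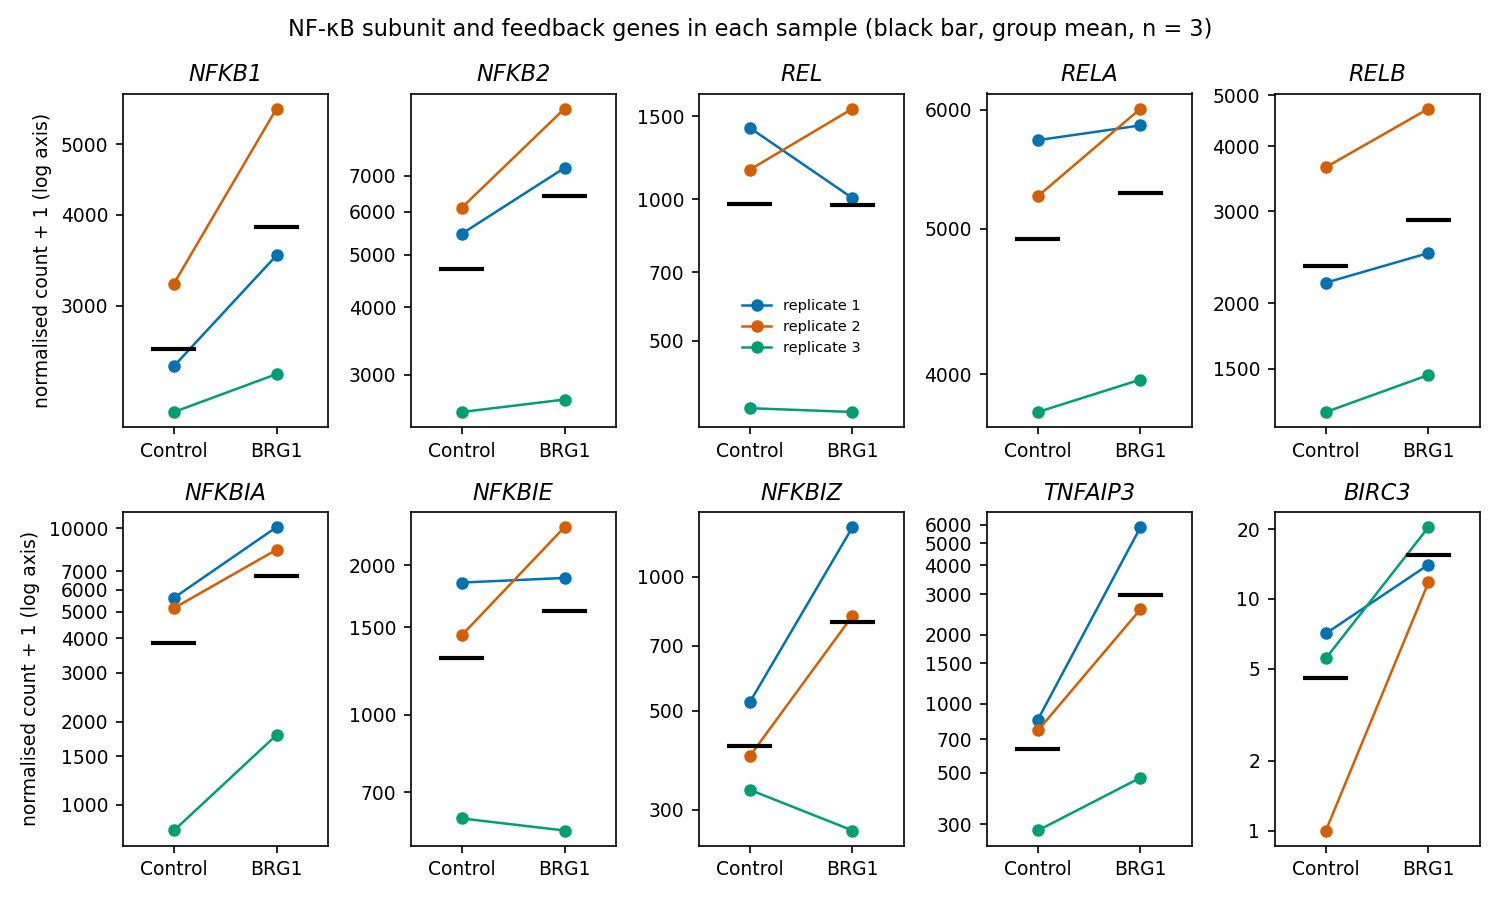
Normalised count + 1 (log axis, its range set separately for each gene) of the 10 members in each Control and BRG1 sample, with lines joining samples of the same replicate number and black bars for group means (n = 3). Replicate 3 (green) is lowest in both groups in every panel but BIRC3, and all 3 lines rise in NFKB1, NFKB2, RELA, RELB, NFKBIA, TNFAIP3 and BIRC3.

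Counted over the 10 members, 0 were called higher and 0 lower by DESeq2 without the block, against 11.0% of all genes called higher and 1.84% called lower. The edgeR test also called 0 in either direction, against 9.57% and 1.02% of all genes. At an unadjusted DESeq2 p under 0.05, 3 members were higher (NFKBIZ, TNFAIP3 and BIRC3) and 0 lower. NFKBIZ and BIRC3 only just passed (unadjusted DESeq2 p 0.0491 and 0.04997). The share of all genes at that unadjusted p was not counted, so this count has nothing to be set against. With the block DESeq2 called 4 members higher (NFKB1, NFKB2, NFKBIA and TNFAIP3) and 0 lower, against 13.4% and 6.61% of all genes. The edgeR test with the block called NFKB1, NFKBIA and TNFAIP3 higher and 0 lower, against 13.7% and 5.68%. The members were chosen by name and with earlier results of these data known, so the counts are a description of these genes.

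Direction was more uniform than the calls. Of the 10 members, 7 were higher with BRG1 in all 3 replicate numbers, against 27.3% of all genes tested. REL, NFKBIE and NFKBIZ were the others, and 0 members were lower in all 3, against 27.4% of all genes. The median log2 fold change was 0.29 over the subunits and 0.93 over the feedback genes, and -0.01 over all genes tested. Whether the feedback genes changed more than the subunits was not tested. In bulk RNA, more cells that respond and more RNA per responding cell cannot be told apart.

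**Figure D3:**
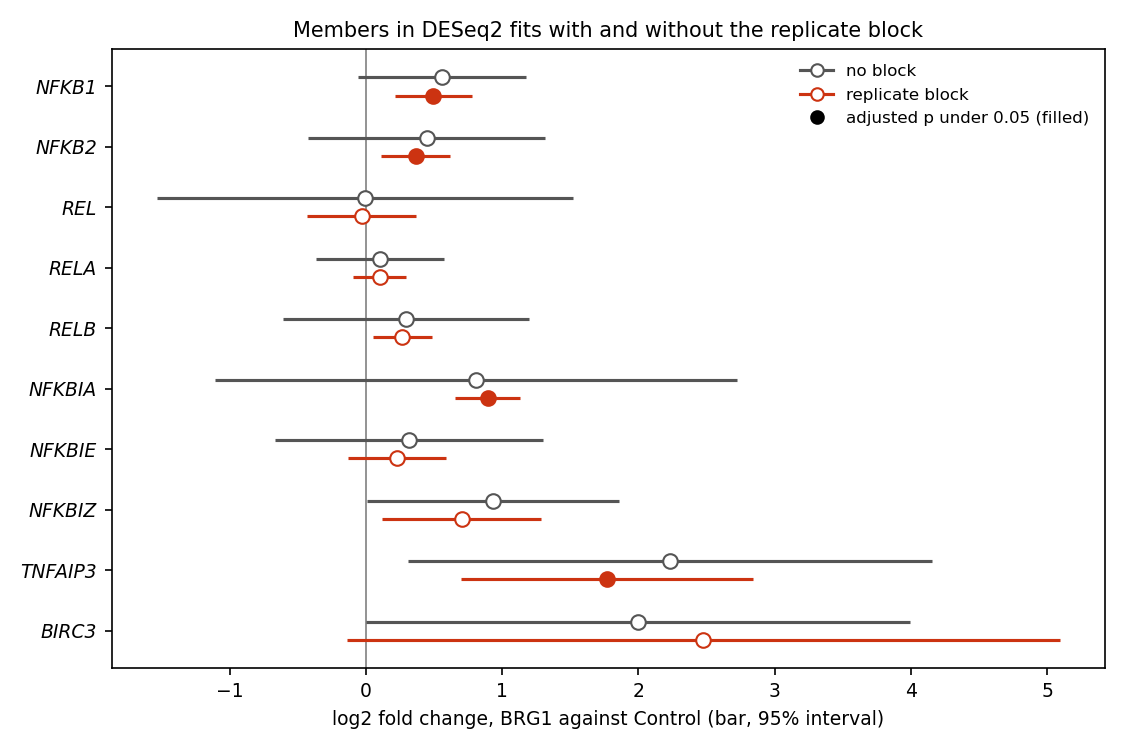
Log2 fold change of BRG1 against Control (points) with 95% intervals (bars) for the 10 members in DESeq2 fits without the block (grey) and with the replicate block (red), filled where the adjusted p was under 0.05. The intervals of every member but BIRC3 are narrower with the block, and NFKB1, NFKB2, NFKBIA and TNFAIP3 are filled in that fit.

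Which members were called depended on the samples left in. Without BRG1 replicate 3 and without a block, DESeq2 called NFKB1 (log2 fold change 0.80, adjusted p 0.0223), NFKBIZ and TNFAIP3 (2.74, adjusted p 0.00157). Leaving out certain other single samples, also without a block, lowered the estimates. The members were not called there, nor were they in the fit of all samples without the block. Without BRG1 replicate 1 TNFAIP3 was at 1.27 (DESeq2 adjusted p 0.703) and NFKBIZ at 0.39 (0.890). Without BRG1 replicate 2 NFKB1 was at 0.19 (DESeq2 adjusted p 0.876) and NFKB2 at 0.08, and without Control replicate 3 NFKBIA was at 0.33. With both samples of number 3 left out, DESeq2 called NFKBIA, NFKBIZ and TNFAIP3 without the block, and these with NFKB1 and NFKB2, 5 members in all, with it. With the block and both samples of number 1 left out NFKBIA and TNFAIP3 were called, and with both samples of number 2 left out NFKBIA was the 1 member called (adjusted p 8.0e-07). NFKBIA was thus called in each of the 4 DESeq2 fits with the block.

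Levels of the members were set side by side per kilobase of the reference (MANE Select) transcript, as normalised counts per kb. NFKBIA had the highest mean in both groups, at 2470 ± 1697 (SD, n = 3) in Control and 4327 ± 2809 with BRG1, but its spread took in RELA, and in replicate 3 it was below RELA in both groups. Of the subunits RELA, at 1954 ± 404 in Control, and NFKB2, at 1563 ± 627, were within their spread of each other. RELB followed at 1044 ± 536, NFKB1 at 645 ± 136 and NFKBIE at 556 ± 267, and these neighbours did not differ beyond their spread. TNFAIP3 at 136 ± 66.1, NFKBIZ at 106 ± 24.8 and REL at 87.9 ± 49.6 were close to one another in Control. With BRG1, TNFAIP3 stood at 637 ± 582 and NFKBIZ at 202 ± 130 per kb. BIRC3 was the least abundant, at 0.515 ± 0.460 in Control and 2.10 ± 0.649 in BRG1 samples. The lengths are those of GENCODE release 44 and not the effective lengths used by the authors.

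The genes whose pattern over the 6 samples was most like that of each member were listed among 11677 other genes with a mean of at least 100 normalised counts, by the mean absolute difference of their centred log2 values. The nearest to NFKB2 was NFKBID, which encodes another nuclear IκB protein, at 0.06 on the log2 scale. The nearest to RELA was ZNHIT6 (0.02), to NFKB1 GLIS2 and to RELB HIVEP1 (both 0.09), and to REL SLC30A1 (0.11). Among the feedback genes, NFKBIA was nearest to FOSL2 (0.09), a gene of the AP-1 family, NFKBIE to KCTD11 (0.12), NFKBIZ to USP2 (0.17), TNFAIP3 to DUSP5 (0.22) and BIRC3 to PPFIA4 (0.36). The second nearest genes were named after their values were seen. MAP3K14, the kinase of the noncanonical branch, was second for REL and NFKBIE (both 0.14), and BCL3, a further IκB protein, for RELB (0.10). For the other subunits the second were CDC42EP4 (NFKB1, 0.09), KCTD11 (NFKB2, 0.11) and WTAP (RELA, 0.03). For the other feedback genes they were ATF3 (NFKBIA, 0.17), PTGER4 (NFKBIZ, 0.19), PHLDA1 (TNFAIP3, 0.24) and PPP1R16B (BIRC3, 0.42). These differences are descriptions over 6 samples, which share the low replicate 3.

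The rest of the pathway was examined with lists by role, chosen with earlier results of these data known. Of 23 kinases and adaptors upstream of NF-κB, 2 were called higher by DESeq2 and 0 lower, and edgeR called 1 higher of 22 tested, against 11.0% and 9.57% of all genes called higher. Neither of these shares, both without the block, was above that of all genes. RBCK1, a subunit of the linear ubiquitin ligase complex that activates the IκB kinases, rose from 5687, 4840 and 5165 to 9320, 8342 and 8351 normalised counts, and its groups did not overlap (log2 fold change 0.73, DESeq2 adjusted p 1.0e-06, edgeR adjusted p 0.00412). IKBKE, a kinase related to the IκB kinases, was at 0, 0 and 1.51 in Control and at 18.9, 7.48 and 22.4 in BRG1 samples (DESeq2 adjusted p 0.0108) and was too low for the edgeR filter. CHUK, IKBKB and IKBKG, chosen with their values in view because they encode the IκB kinase complex itself, stood at 0.02, -0.07 and 0.03 on the log2 fold scale and were not called (DESeq2 adjusted p 0.974, 0.936 and 0.948). The median of the list was 0.10. With the block, DESeq2 called 6 higher and edgeR 2, against 13.4% and 13.7% of all genes called higher. The list was thus above the share of all genes in DESeq2 and below it in edgeR, and the difference was not tested. The adaptor gene TRAF6, also chosen with its values in view, had 685, 532 and 291 normalised counts in Control and 2884, 1601 and 473 in BRG1 samples, and was called with the block (DESeq2 adjusted p 3.1e-08, edgeR adjusted p 0.00423) and not without it (DESeq2 adjusted p 0.137).

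Of 9 further inhibitors, DESeq2 called 2 higher and 0 lower and edgeR 1 higher, counts too small to set apart from the same 11.0% and 9.57% of all genes. With the block DESeq2 called 4 of the 9 higher and edgeR 3, against 13.4% and 13.7% of all genes. ZC3H12A, an RNase that degrades inflammatory transcripts, had 189, 169 and 199 normalised counts in Control and 1869, 692 and 312 in BRG1 samples (log2 fold change 2.37, DESeq2 adjusted p 8.8e-05, edgeR adjusted p 0.0382). TNIP1, a partner of the TNFAIP3 protein, rose less, by 0.80 on the log2 scale (DESeq2 adjusted p 0.0201), and this call was lost under edgeR (adjusted p 0.0775) but not with edgeR and the block (adjusted p 0.00620). In both genes the fold was largest in replicate 1 and smallest in replicate 3, the order seen in TNFAIP3.

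Lists of target genes were counted in the same way, and differences between lists were not tested. Of 8 survival targets, DESeq2 called 4 higher (edgeR 3 of 7 tested) and 0 lower, with a list median of 1.77. Over all genes, DESeq2 called 11.0% higher and edgeR 9.57%. BCL2L1, which encodes an inhibitor of apoptosis, rose from 2729, 3113 and 2635 to 14203, 9980 and 6699 normalised counts (log2 fold change 1.87, DESeq2 adjusted p 2.6e-10, edgeR adjusted p 0.00233). TRAF1, TNFAIP2 and IER3 had log2 fold changes of 2.01, 2.95 and 2.33, and the call of IER3 was lost under edgeR (adjusted p 0.0604). With the block DESeq2 called 7 of the 8 and edgeR 6, against 13.4% and 13.7% of all genes called higher.

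Of 24 inflammatory targets, 23 had an adjusted p and DESeq2 called 11 of them higher and 0 lower, against 11.0% of all genes called higher. The edgeR test called 8 of 18 tested, against 9.57% of all genes. With the block DESeq2 and edgeR each called 11, against 13.4% and 13.7% of all genes. CCL5, a chemokine gene, had 20.7, 7.04 and 9.09 normalised counts in Control and 1592, 1112 and 928 in BRG1 samples, and it rose by 6.66 on the log2 scale (DESeq2 adjusted p 2.3e-62). IL1B rose from 9.75, 4.69 and 1.51 to 1288, 583 and 476 (log2 fold change 7.30). CCL2 rose from 240, 145 and 40.1 to 20208, 11733 and 2131, and its BRG1 sample 3 was again far below the other two. TNFRSF9, a receptor of activated lymphocytes, was at 0 counts in all Control samples and at 213, 204 and 35.8 in BRG1 samples, at least 47.8-fold higher against a floor of 3 counts per library. IL1A and IL6 had log2 fold changes of 6.16 and 6.37, from 0 to 7.04 normalised counts in Control, and BRG1 samples of IL6 differed widely, at 782, 117 and 29.9. The list median was 2.23, and 2.22 over 23 genes with TNFRSF9 at its bound and CSF2, which was under the floor in both groups, left out. CXCL1, PTGS2, CD40 and CD83, named after their values were seen, were not called (log2 fold changes -0.03, -0.12, 0.06 and -0.16). Many of these targets also respond to interferon and other factors, and what part NF-κB had in their change was not tested.

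**Figure D4:**
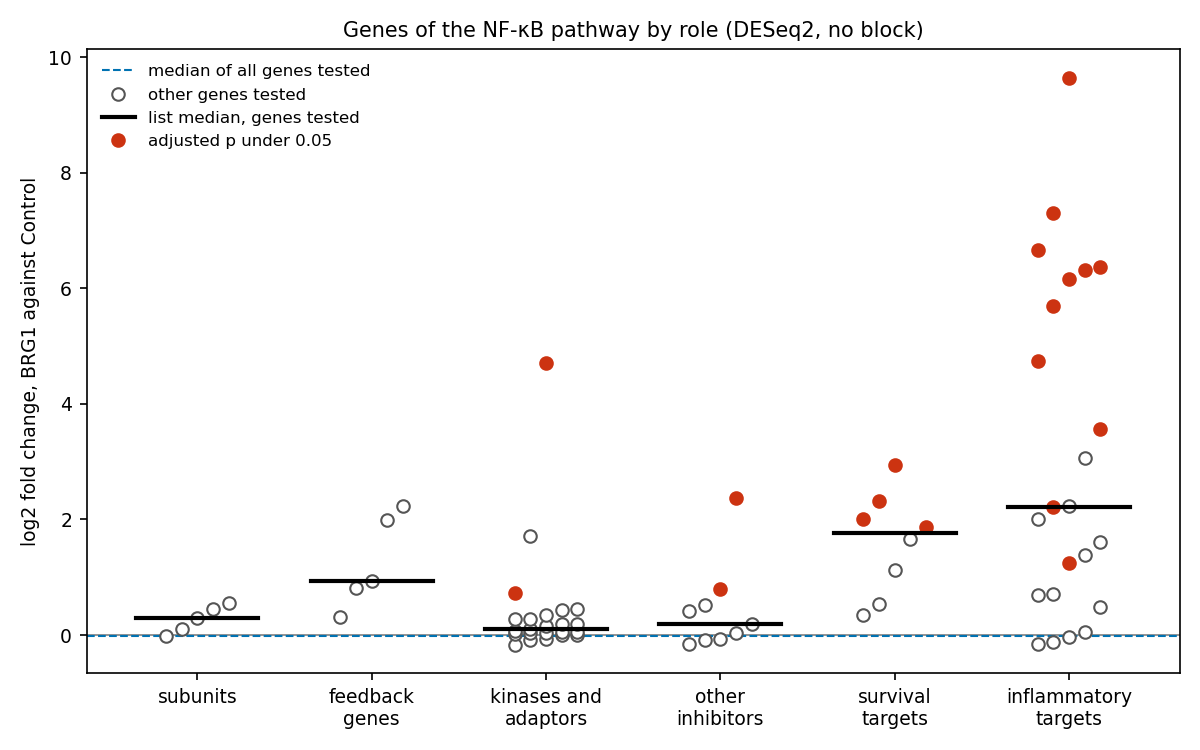
Log2 fold change (DESeq2, no block) of the tested genes of the NF-κB pathway by role, with filled points for an adjusted p under 0.05, black bars for list medians and a dashed line for the median of all genes tested. Subunits and feedback genes have no filled point, kinases and adaptors have a median of 0.10 and 2 filled points, and 11 inflammatory targets are filled.

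Leukocytes express several of these genes strongly, so their markers were checked. The summed level of 10 leukocyte markers ran from 354 to 687 normalised counts in Control and from 392 to 766 in BRG1 samples, nearly all of it from PTPRC, which had means of 505 ± 167 and 520 ± 185 (SD, n = 3) and was not called. The T and B cell markers CD3D, CD3E and MS4A1 had group means between 0 and 0.277, and LYZ, called higher, had a mean of 19.0 ± 4.57 in BRG1 samples. The granulosa markers FOXL2, AMHR2, FSHR, NR5A1, STAR and GATA4 had means of 5.87 or less, while INHBA, INHBB and CYP19A1 were called higher and AMH and INHA were detected. SMARCA2, the other SWI/SNF ATPase gene, had means of 16.4 ± 10.9 and 24.1 ± 15.9. Mitochondrial genes took 5.18% to 6.00% of the counts in Control and 4.13% to 4.61% in BRG1 samples, and their part in the results was not tested.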

How the data were processed

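RNA-seq was analysed from 3 Control and 3 BRG1 samples of COV434 cells. Unstranded libraries were aligned by the authors with STAR (2.5.3a) to hg38 and quantified with salmon (0.8.2). The authors deposited estimated counts per gene, from length-scaled TPM through tximport, with no division by library size. Salmon divides reads shared between genes by a model.

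Estimated counts were rounded and tested over all genes with the DESeq2 (1.42.0, R 4.3.3) Wald test with no covariate. The study's methods name DESeq2 and state no covariate. Of 19899 genes, 18096 had a count and 16002 an adjusted p. Genes were called at a Benjamini-Hochberg adjusted p under 0.05. Normalised counts are counts divided by median-ratio size factors. The fits of all samples were tested on simulated data, and those with left-out samples were not. The simulated counts held no effect shared by same-numbered samples, so the block was not tested against such an effect. The quasi-likelihood test of edgeR (4.0.16) is given beside DESeq2. Further alternatives were limma-voom (limma 3.58.1), TMM factors, a filter of 10 counts in 3 samples, a threshold of 0.01 and left-out samples. The labels number replicates 1 to 3 in both groups and call them biological. Deviations of same-numbered samples from their group means correlated at 0.341, 0.298 and 0.459 over 14220 genes. Those of differently numbered samples correlated at -0.362 to 0.069. The numbers were therefore taken as pairs, and values with the replicate block are given. Intervals are 95% from fitted standard errors. A Control group at 0 was set to a floor of 3 counts per library, which covers counting error only. Named genes were the members, SMARCA4, up to 6 called genes of each list by size, and those nearest in pattern, unless the text says otherwise. The members and lists were chosen with earlier results of these data known.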

Additional observations from a re-analysis of the deposited data

How the results depend on the processing

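Each member and SMARCA4 was refitted under 19 alternatives, of which the 6 that leave out both samples of a replicate number were chosen after seeing the data. The cause of a change was not tested, beyond that left-out samples leave fewer. SMARCA4 was called higher in all 19. The count of members called higher (0) became 4 under the DESeq2 replicate block and 3 under edgeR with that block. It lay between 0 and 3 on leaving out a single replicate, and was 3 without BRG1 replicate 3. With both samples of number 3 left out it was 3, and with the block and number 1, 2 or 3 left out it was 2, 1 and 5. In the fits of all samples, the block changed the call of NFKB1, NFKB2, NFKBIA and TNFAIP3 and of no other member. No alternative called a member or a pathway list gene lower (0). The count of pathway list genes called higher (19) was 10 with limma-voom and between 13 and 22 on leaving out single replicates. It was 28 with the DESeq2 replicate block and 22 with edgeR and the block. With both samples of number 3 left out and no block it was 24. All genes called higher (1764) were 1160 and 1141 with number 1 or 2 left out. All genes called lower (294) were 146 with edgeR, 169 with limma-voom, 1035 with the block, 809 with edgeR and the block, 130 at the threshold of 0.01, and between 116 and 596 on leaving out single replicates. They were 59 and 39 with number 1 or 2 left out, and 178 and 708 with the block and number 2 or 3 left out.

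The log2 fold change of 4 members reversed in some fits, in none of which they were called. REL was 0.23 with limma-voom, 0.36 without Control replicate 1, 0.13 without Control replicate 2 and 0.39 without BRG1 replicate 3, and with number 1 left out it was 0.34, or 0.21 with the block. RELA, RELB and NFKBIE were -0.058, -0.014 and -0.024 without Control replicate 3, and -0.00013, -0.25 and -0.075 without BRG1 replicate 2. On leaving out single replicates REL lay between -0.52 and 0.39, RELA between -0.058 and 0.27, RELB between -0.25 and 0.75 and NFKBIE between -0.075 and 0.71. NFKBIE was -0.025 with the block and number 2 left out. Depth limits BIRC3, at 0 to 18 estimated counts per library.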
